A study of Homo sapiens with 15 samples.

Results

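The genes described here are the nuclear-encoded subunits of the mitochondrial respiratory chain and ATP synthase, followed in Caco-2 cells exposed to dishwasher rinse aid. They were chosen by symbol, as protein-coding genes whose names begin with NDUFA, NDUFB, NDUFC, NDUFS or NDUFV (the assembly factors named NDUFAF left out), SDHA to SDHD, UQCR, COX4 to COX8, ATP5F1, ATP5M or ATP5P, together with CYC1 and CYCS. The rule gave 91 of the 60557 genes that all 15 count files share. Of these, 38 belong to complex I, 4 to complex II, 10 to complex III, 19 to complex IV and 19 to complex V, and 1 is cytochrome c. NDUFA4 and NDUFA4L2 were placed with complex IV, where NDUFA4 works, and CYC1 with complex III. The symbol rule used no measured value, but this part of the series was chosen with earlier results of these data known.

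Complexes I and II pass electrons from NADH and succinate to ubiquinone, complex III passes them on to cytochrome c, and complex IV passes them to oxygen. Complexes I, III and IV pump protons across the inner mitochondrial membrane, and complex V, the ATP synthase, uses the gradient to make ATP. All of them except complex II and cytochrome c combine subunits made from nuclear genes with subunits made from mitochondrial DNA. Enterocytes use this ATP for the sodium pump and for absorptive transport.

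Caco-2 is a human colorectal carcinoma line whose confluent monolayers resemble enterocytes, and it is a model of the gut epithelium made of 1 tumour-derived cell type. Monolayers had received rinse aid, the surfactant liquid of a dishwasher's last rinse, for 24 h at a dilution of 1:10000 or 1:40000, or had been left unexposed as controls. Each of the 3 groups held 5 libraries of polyadenylated RNA, and the 1:10000 dilution was 4 times as concentrated as the other. The labels do not say that replicates came from different cultures. A p-value here therefore refers to the spread among the libraries alone, which may be technical.

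Some facts about the libraries bear on every result. Per the file headers, the controls were aligned with RNA STAR and both rinse aid groups with HISAT2, so in the comparisons with control the aligner and the exposure cannot be told apart, whereas both dilutions share 1 aligner and 1 gene list. Control libraries held 4333226 to 14230853 counts, those of the 1:10000 dilution 5489425 to 9555632 and those of the 1:40000 dilution 2551839 to 172092447. At 1:40000, replicate 1 (the deepest library) and replicate 2 (the shallowest) stood apart from the other 3 in mitochondrially encoded transcripts, and several results are also given without them. The epithelial markers were all detected, with a summed level of 10280 to 12134 CPM for control libraries, 12183 to 14236 for the 1:10000 group and 10053 to 11478 for the 1:40000 group, while PTPRC of leukocytes, THY1 of fibroblasts and MYL2 of muscle had 0 counts in all libraries. Between the dilutions 2 of 12 tested epithelial markers were higher and 7 lower at 1:10000. The 7 fibroblast markers, 4 of them tested, summed to 129.5 to 153 CPM for control libraries, 59.3 to 78.4 for 1:10000 and 104 to 134 for 1:40000. The 6 leukocyte markers summed to 13.5 to 21.1, 8.78 to 11.8 and 15.7 to 23.5 CPM and the 3 endothelial markers to 3.77 to 10.8, 3.26 to 4.27 and 7.41 to 11.6 CPM in the same order. Among them CD14, LYZ and PECAM1 could be tested and were lower at 1:10000 than at 1:40000 (log2 fold changes of -1.40 ± 0.17, -0.59 ± 0.20 and -1.51 ± 0.22). The part of such markers in the results was not tested. In bulk RNA, fewer cells of a kind and less RNA per cell cannot be told apart.

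The nuclear genes of the chain are known to share binding sites for a few transcription factors, so their promoters were searched for 3 short motifs on both strands, namely GCATGCG of NRF1, CCGGAAG of ETS factors such as GABPA, and ATGGCGG of YY1. RefSeq windows of 300 bases on GRCh38.p14, from 250 bases before the start to 50 after it, were at hand for 71 of the 91 genes. NRF1's letters were found in 15 of these 71 (21.1%), against 4.74% of 27305 genes with a window. The ETS letters were in 21 (29.6%, against 12.2% of all genes) and the YY1 letters also in 21 (29.6%, against 6.66%), with at least 1 of the 3 in 40 (56.3%, against 20.5%). A match is a description of the letters and not a bound site.

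Printed here are the 250 bases upstream of 4 genes picked from the comparisons between the dilutions and within the ATP synthase c-ring. ATP5MC1 (chr17:48892537-48892786, plus strand) and ATP5MC2 (chr12:53676084-53676333, minus strand, the first of 3 listed starts) encode the same c-ring protein. CYCS (chr7:25125261-25125510, minus strand) encodes cytochrome c, and COX7A2L (chr2:42361218-42361467, minus strand, the first of 2 listed starts) encodes a factor that joins complexes III and IV. Capitals mark matches to the 3 motifs, which were present in ATP5MC2 and CYCS and not found in the windows shown of ATP5MC1 and COX7A2L.
ATP5MC1: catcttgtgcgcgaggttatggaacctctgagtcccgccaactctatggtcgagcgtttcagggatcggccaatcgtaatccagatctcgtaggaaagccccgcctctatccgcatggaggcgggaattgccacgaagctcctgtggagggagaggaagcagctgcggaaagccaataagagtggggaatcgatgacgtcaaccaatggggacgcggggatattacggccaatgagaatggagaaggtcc
ATP5MC2: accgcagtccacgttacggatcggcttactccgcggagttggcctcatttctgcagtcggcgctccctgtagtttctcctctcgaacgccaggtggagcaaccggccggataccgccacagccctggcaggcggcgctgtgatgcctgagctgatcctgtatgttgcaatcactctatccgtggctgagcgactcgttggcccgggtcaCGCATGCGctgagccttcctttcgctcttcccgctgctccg
CYCS: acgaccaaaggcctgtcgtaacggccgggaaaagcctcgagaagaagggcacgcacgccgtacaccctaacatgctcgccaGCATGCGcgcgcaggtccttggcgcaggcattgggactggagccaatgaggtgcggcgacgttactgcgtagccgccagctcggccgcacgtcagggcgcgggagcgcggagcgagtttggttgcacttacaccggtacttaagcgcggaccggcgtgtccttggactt
COX7A2L: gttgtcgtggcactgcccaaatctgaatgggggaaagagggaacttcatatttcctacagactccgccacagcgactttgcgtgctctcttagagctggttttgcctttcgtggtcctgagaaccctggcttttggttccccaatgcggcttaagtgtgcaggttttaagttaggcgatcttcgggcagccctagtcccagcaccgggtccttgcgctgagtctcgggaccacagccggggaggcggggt
In ATP5MC2 the capitals are 2 overlapping NRF1 matches, 1 on each strand, that begin 41 and 40 bases before the start. In CYCS they are 1 NRF1 match that begins 169 bases before the start. Between the dilutions, 7 of 13 members with a window that were higher at 1:10000 held at least 1 motif, as did 9 of 13 that were lower and 22 of 38 that did not pass the test. NRF1's letters were held by 4 of the 13 higher, 3 of the 13 lower and 8 of the 38. NDUFS6, lower at 1:10000 and not printed, held 2 overlapping NRF1 matches that begin 45 and 44 bases before the start.

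Between the dilutions, complexes I, III, IV and V each held some subunits that were higher and others that were lower at 1:10000, and the changes were small, with SDHA at the low end and COX7A2L at the high end. Expression was compared in CPM, counts scaled to a common library size after trimmed mean of M-values normalisation, and a gene was called at a Benjamini-Hochberg adjusted p under 0.05 in edgeR's quasi-likelihood test over 13157 genes. Of the 91 genes, 79 passed the filter on low counts. Between the dilutions 32 of these 79 (40.5%) were called, 14 higher and 18 lower at 1:10000, against 57.3% of all tested genes (28.3% higher and 29% lower). In 18 of the 79 the libraries of the groups did not overlap (22.8%, against 40.3% of all tested genes). Their median log2 fold change was -0.04, against -0.01 over all tested genes, and their median absolute log2 fold change was 0.17, against 0.34. Upper-quartile scaling gave 11 higher and 25 lower, and leaving out replicates 1 and 2 at 1:40000 gave 12 and 24, so the balance of directions moves with both choices.

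**Figure D1:**
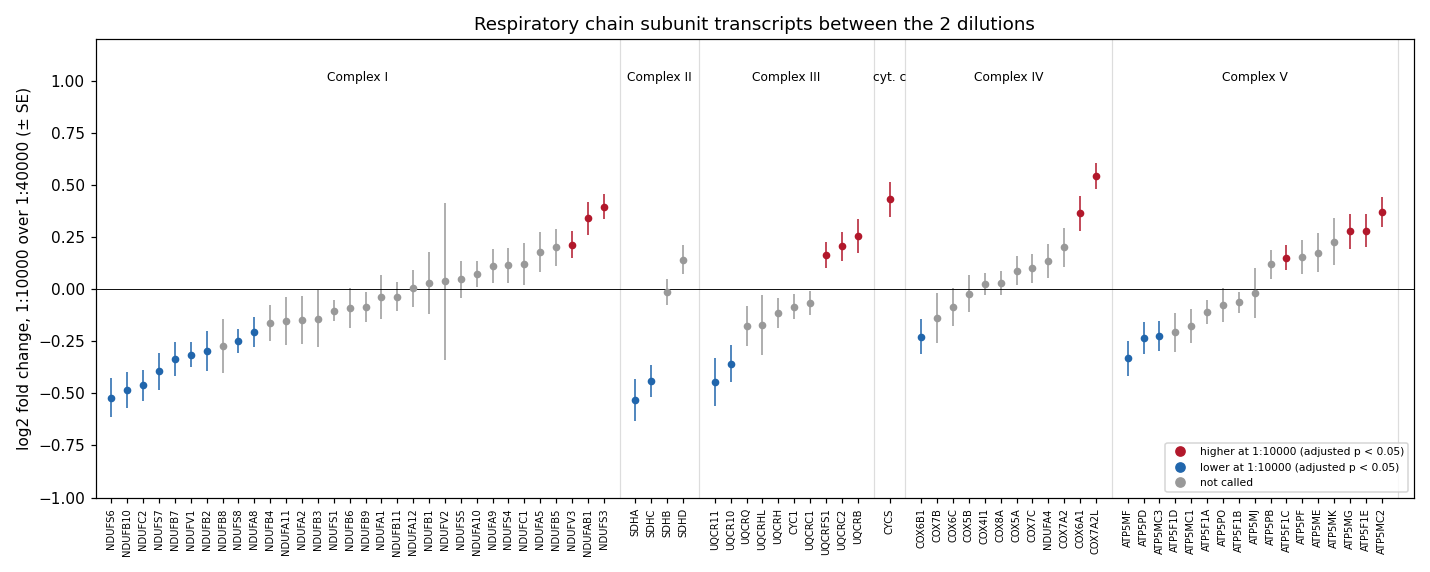
Log2 fold change of tested subunit transcripts at 1:10000 over 1:40000, grouped by complex and sorted within it, with bars of 1 SE over 5 against 5 libraries and colour marking the call. NDUFA3 and NDUFA6, which were nearly uncounted in both rinse aid groups, are left out. The points run from -0.53 (SDHA) to 0.54 (COX7A2L), and complex I has 4 higher and 10 lower calls over all its tested members.

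Complex I takes electrons from NADH through a flavin and a chain of iron-sulphur clusters carried by its core subunits. Between the dilutions 14 of its 35 tested genes were called, 4 higher and 10 lower at 1:10000. Of the 28 tested accessory subunits, 6 were lower and 3 were higher. NDUFV1, the subunit that binds the flavin and oxidises NADH, measured 252, 261, 235, 233 and 254 CPM at 1:10000, 333, 310, 274, 303 and 315 CPM at 1:40000 and 274, 304, 257, 268 and 271 CPM in the controls. The 2 dilutions did not overlap, and the controls lay between and overlapped both. NDUFV1 was lower by a log2 fold change of -0.32 ± 0.06 (SE, edgeR adjusted p = 9.06e-05).

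The iron-sulphur subunits NDUFS7 and NDUFS8 were lower too. NDUFS7 had 43.2 ± 3.96 CPM (mean ± SD, n = 5) at 1:10000 and 57.4 ± 6.99 at 1:40000, with a log2 fold change of -0.40 ± 0.09 (edgeR adjusted p = 0.000522). For NDUFS8 the log2 fold change was -0.25 ± 0.06. NDUFS3, the core subunit beside the quinone module, went the other way. NDUFS3 measured 118, 101, 106, 99.3 and 103 CPM at 1:10000, 78.2, 78.7, 84.6, 80.2 and 79.4 CPM at 1:40000 and 84.3, 86.1, 88.3, 85 and 89.2 CPM in the controls. Every 1:10000 library lay above all 10 others, and the log2 fold change between dilutions was 0.40 ± 0.06 (edgeR adjusted p = 4.36e-06). NDUFS1, a core subunit that carries iron-sulphur clusters, was not called (-0.10 ± 0.05, edgeR adjusted p = 0.0757), and was called lower under 4 of 22 alternative settings.

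The accessory subunits gave the largest called changes of complex I between the dilutions, NDUFA3 aside. NDUFS6, a zinc-binding subunit added late in assembly, measured 53.7, 59.6, 59.5, 57.4 and 66 CPM at 1:10000, 65.7, 82.1, 88.5, 94.3 and 95.7 CPM at 1:40000 and 86.3, 94.5, 92.7, 101 and 112 CPM in the controls. The dilutions overlapped in 1 library each, replicate 5 at 1:10000 and replicate 1 at 1:40000, and all controls lay above the 1:10000 libraries. Its log2 fold change between the dilutions was -0.52 ± 0.09 (edgeR adjusted p = 4.5e-05). NDUFB10 and NDUFC2 of the membrane arm fell without overlap, by 0.49 ± 0.09 and 0.46 ± 0.08 on the log2 scale. NDUFAB1, the mitochondrial acyl carrier protein, was higher by a log2 fold change of 0.34 ± 0.08, and NDUFV3 of the NADH-oxidising module was higher by 0.21 ± 0.06, both without overlap.

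Complex II, succinate dehydrogenase, is encoded wholly in the nucleus and also serves the citrate cycle. SDHA, its flavoprotein, measured 13.2, 11.6, 13.4, 12.5 and 14.4 CPM at 1:10000, 21, 19.5, 16.8, 18.3 and 19.0 CPM at 1:40000 and 19.2, 19.1, 22.6, 19.4 and 18 CPM in the controls. All 1:10000 libraries lay below the other 10, which overlapped each other. SDHA was lower by a log2 fold change of -0.53 ± 0.10 (edgeR adjusted p = 7.9e-05), the lowest value among the tested members. The gene has 4 annotated pseudogenes, and its version differed between the control and rinse aid files. SDHC, a membrane anchor, measured 68.7, 69, 64.1, 70.3 and 67.5 CPM at 1:10000, 78.2, 89, 97.7, 98.3 and 98.3 CPM at 1:40000 and 106, 132, 126, 134 and 116 CPM in the controls. Its 3 groups formed separate ranges in the order of dose, and the log2 fold change between dilutions was -0.44 ± 0.08 (edgeR adjusted p = 2.7e-05). SDHB, the iron-sulphur subunit, had 98.2 ± 8.16 and 99.1 ± 2.09 CPM, with a log2 fold change of -0.01 ± 0.06 (edgeR adjusted p = 0.866). SDHD, the other anchor, was not called (0.14 ± 0.07, edgeR adjusted p = 0.0829), and passed under 3 of 22 alternatives.

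Complex III carries electrons from ubiquinol to cytochrome c. Of its 10 tested genes, 3 were higher and 2 lower at 1:10000 than at 1:40000. The 2 lower ones were the small membrane subunits UQCR10 and UQCR11, with log2 fold changes of -0.36 ± 0.09 and -0.45 ± 0.11. UQCR11 had 13.5, 10.8, 12, 11.3 and 12.1 CPM at 1:10000 and 14.1, 14.1, 16.2, 17.9 and 19.2 CPM at 1:40000, which did not overlap. The higher ones were UQCRB (0.25 ± 0.08), the core protein UQCRC2 (0.21 ± 0.07) and the Rieske iron-sulphur protein UQCRFS1 (0.16 ± 0.06), all with overlapping groups. The call for UQCRB ended under 2 of 22 alternatives, with 0.17 and an edgeR adjusted p of 0.0708 without replicates 1 and 2 at 1:40000 and 0.19 and 0.0744 without the low-count filter. The call for UQCRC2 ended under 3 (edgeR adjusted p = 0.0543 without replicate 1 at 1:10000 and up to 0.19, without the low-count filter). The call for UQCRFS1 ended under 9 (adjusted p up to 0.404). UQCRC1, the other core protein, and CYC1, the cytochrome c1 that hands over the electrons, were not called (-0.07 ± 0.06 and -0.08 ± 0.06).

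Cytochrome c, encoded by CYCS, is the soluble carrier between complexes III and IV and triggers apoptosis when released. CYCS measured 257, 209, 200, 202 and 212 CPM at 1:10000, 142, 160, 171, 170 and 162 CPM at 1:40000 and 179, 129, 159, 173 and 180 CPM in the controls. All 1:10000 libraries lay above all others, which overlapped each other. The transcript was 1.35-fold higher than at 1:40000, a log2 fold change of 0.43 ± 0.09 (edgeR adjusted p = 0.000177), and the call held under 22 of 22 alternatives. CYCS has 42 annotated pseudogenes, and adding the counts of each member's pseudogenes to it left all 32 calls between the dilutions in place.

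Complex IV, cytochrome oxidase, had the fewest calls of the large complexes, 2 higher and 1 lower of 12 tested genes. COX7A2L, also known as SCAF1, helps to join complexes III and IV into supercomplexes. COX7A2L measured 250, 223, 193, 196 and 203 CPM at 1:10000, 146, 143, 147, 143 and 151 CPM at 1:40000 and 145, 144, 143, 142 and 145 CPM in the controls. Its 1:10000 libraries stood above all 10 others, which lay between 142 and 151 CPM. The difference was 1.46-fold, a log2 fold change of 0.54 ± 0.06 (edgeR adjusted p = 8.26e-08), the highest of the tested members other than NDUFA3. COX7A2L has no annotated pseudogene, no exon overlap and an unchanged gene model, on the minus strand of chromosome 2 from 42333546 to 42425088 (GRCh38, GENCODE 29).

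COX6A1, the isoform of subunit 6A found in most tissues, was also higher. COX6A1 measured 134, 118, 101, 104 and 115 CPM at 1:10000, 88.5, 98.9, 86.1, 82.8 and 91.9 CPM at 1:40000 and 67.9, 89.8, 66.6, 72.7 and 66.8 CPM in the controls. The 1:10000 libraries did not overlap either other group, and the log2 fold change between dilutions was 0.36 ± 0.08 (edgeR adjusted p = 0.000759). COX6B1, which faces the intermembrane space, was lower by a log2 fold change of -0.23 ± 0.09 (edgeR adjusted p = 0.0257). That call ended under 6 of 22 alternatives, each leaving out 1 library, with an adjusted p of up to 0.0965 (without replicate 3 at 1:10000). The core-binding subunits COX4I1, COX5A and COX5B were not called, with log2 fold changes of 0.02 ± 0.05, 0.09 ± 0.07 and -0.02 ± 0.09. NDUFA4, COX7A2, COX7B and COX8A were not called either, with values from -0.14 (COX7B) to 0.20 (COX7A2). COX7A2 passed under 1 of 22 alternatives, without replicate 2 at 1:40000 (edgeR adjusted p = 0.0422).

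Complex V, the ATP synthase, has a catalytic head that makes ATP and a membrane part that carries the protons, and 4 of its 17 tested genes were higher and 3 lower at 1:10000 than at 1:40000. The 5 genes of the head gave 2 higher and 0 lower calls, namely the gamma subunit ATP5F1C (0.15 ± 0.06) and the epsilon subunit ATP5F1E (0.28 ± 0.08). The call for ATP5F1C ended under 10 of 22 alternatives (edgeR adjusted p up to 0.435). ATP5F1B, the catalytic beta subunit, had 1137 ± 60.4 CPM at 1:10000, 1189 ± 35.4 at 1:40000 and 1194 ± 30.4 in the controls and was called in no comparison. ATP5F1A, the alpha subunit, was not called between the dilutions (-0.11 ± 0.06, edgeR adjusted p = 0.114). Of the 12 tested membrane and stalk subunits, 2 were higher and 3 lower, the lowest being ATP5MF, subunit f (-0.33 ± 0.08, edgeR adjusted p = 0.00127).

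The c-ring of the ATP synthase turns as protons pass, and 3 genes, ATP5MC1, ATP5MC2 and ATP5MC3, encode the same mature c subunit with different import sequences. ATP5MC2 measured 130, 121, 104, 112 and 112 CPM at 1:10000, 96.8, 99.7, 77.6, 89.3 and 88.9 CPM at 1:40000 and 98.3, 111, 102, 103 and 97.7 CPM in the controls. The dilutions did not overlap, and the log2 fold change between them was 0.37 ± 0.07 (edgeR adjusted p = 0.000121). ATP5MC3 measured 229, 200, 191, 209 and 215 CPM at 1:10000, 199, 228, 261, 264 and 267 CPM at 1:40000 and 344, 367, 358, 372 and 359 CPM in the controls. Here the dilutions overlapped, in replicates 1 and 2 at 1:40000, and the log2 fold change was -0.22 ± 0.07 (edgeR adjusted p = 0.00944). ATP5MC1 measured 72.8, 56.2, 54.6, 65 and 67.7 CPM at 1:10000, 66.2, 61.5, 72, 77.6 and 79.3 CPM at 1:40000 and 125, 133, 119, 134 and 126 CPM in the controls. It was not called between the dilutions (-0.18 ± 0.08, edgeR adjusted p = 0.0619), and was called lower under 9 of 22 alternatives (-0.25, edgeR adjusted p = 0.0108, without replicates 1 and 2 at 1:40000).

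The make-up of the c-ring transcripts differed between groups. ATP5MC2 held 28.4 to 32.2% of the summed CPM of the 3 genes at 1:10000, not corrected for length, against 16.8 to 18.2% in the controls. At 1:40000 its share was 26.7 and 25.6% in replicates 1 and 2 and 18.9 to 20.7% in the other 3. All rinse aid libraries therefore lay above all controls in this share, and the 2 libraries that stand apart lay nearest to the 1:10000 group. The summed CPM of the 3 genes was 388 ± 29.8 at 1:10000, 406 ± 30.5 at 1:40000 and 590 ± 19.6 in the controls (mean ± SD, n = 5). No test was made of the shares. ATP5MC1 has 8 annotated pseudogenes, ATP5MC2 has 5 and ATP5MC3 none, and exons of ATP5MC2 and ATP5MC3 overlap other annotated genes.

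**Figure D2:**
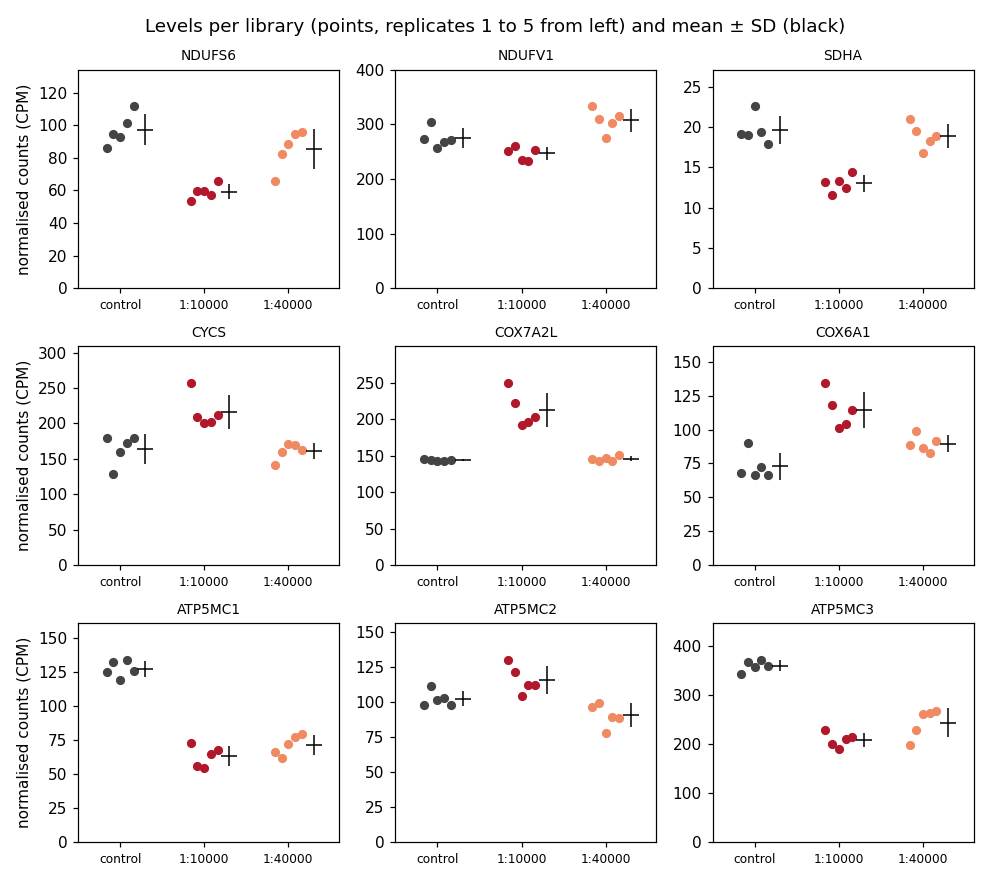
Normalised counts (CPM) of 9 subunit genes in each library, with 5 points per group in replicate order from the left and a black bar for mean ± SD. COX7A2L and CYCS are high at 1:10000 alone, SDHA is low at 1:10000 alone, and ATP5MC1 and ATP5MC3 lie below the controls in both rinse aid groups while ATP5MC2 does not.

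Against the controls most of the called subunits were lower in both rinse aid groups. At 1:10000 the test called 55 of 79 (69.6%), 11 higher and 44 lower, against 71% of all tested genes (34.8% higher and 36.2% lower). The members' median log2 fold change was -0.23, that of all tested genes -0.02. At 1:40000 it called 43 (54.4%), 6 higher and 37 lower, against 52.1% of all tested genes (26.1% higher and 26% lower), with a median of -0.16 against 0.00. Groups did not overlap for 41 members (51.9%) at 1:10000 and for 33 (41.8%) at 1:40000, where 57.8 and 36.3% of all tested genes did not overlap. The number of calls was thus near the background while their directions were mostly down. These 2 comparisons share the controls, and the aligner changes with the exposure in both. Without replicates 1 and 2 at 1:40000, the weaker dilution had 4 higher and 31 lower members.

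**Figure D3:**
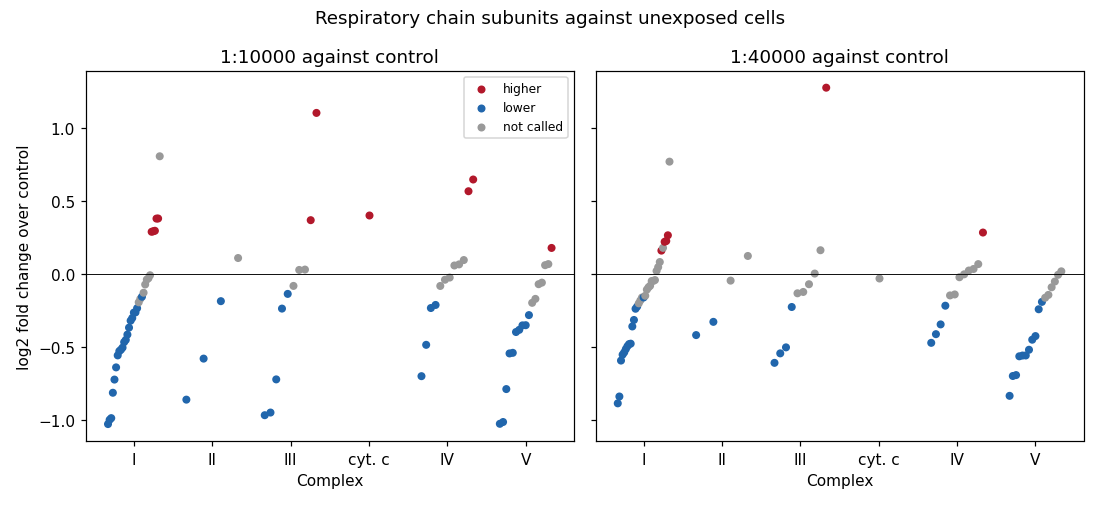
Log2 fold change over control of each tested subunit transcript at 1:10000 (left) and 1:40000 (right), by complex, with colour marking the call and members sorted within a complex. NDUFA3 and NDUFA6 are left out. Most points of complexes I and V lie below 0 in both panels, with 22 and 10 lower calls at 1:10000 and 16 and 11 at 1:40000 when those 2 genes are counted.

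By complex, lower calls outnumbered higher ones everywhere except for cytochrome c. Complex I had 5 higher and 22 lower of 35 at 1:10000 and 4 and 16 at 1:40000. Its 28 tested accessory subunits gave 4 higher and 19 lower at 1:10000 and 1 and 15 at 1:40000. Among the accessory subunits, NDUFB3, NDUFA2 and NDUFC2 fell at 1:10000 by 1.03 ± 0.14, 0.99 ± 0.11 and 1.00 ± 0.07 on the log2 scale. At 1:40000 NDUFB3, NDUFA2 and NDUFC2 fell by 0.88 ± 0.13, 0.84 ± 0.11 and 0.54 ± 0.07. NDUFS4 and NDUFB5, accessory subunits whose groups lay the other way, were higher at 1:10000 by log2 fold changes of 0.38 ± 0.09 each.

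The core subunits differed among themselves against control. NDUFV1 was lower at 1:10000 (-0.16 ± 0.06, edgeR adjusted p = 0.0248) and higher at 1:40000 (0.16 ± 0.06, adjusted p = 0.0287), with calls that ended under 6 and 5 of 22 alternatives. NDUFS8 was higher at 1:40000 without overlap (0.22 ± 0.06, edgeR adjusted p = 0.00327) and not called at 1:10000 (-0.03 ± 0.06). NDUFS7 was higher at 1:40000 as well (0.23 ± 0.09, edgeR adjusted p = 0.0339), a call that ended under 6 of 22 alternatives, with 0.15 and an adjusted p of 0.196 without replicates 1 and 2. NDUFS1 was lower in both groups, with 249.8 ± 9.47 and 268 ± 5.88 CPM against 300.0 ± 8.57 (mean ± SD, n = 5). Its log2 fold changes were -0.26 ± 0.05 and -0.16 ± 0.05, and the call at 1:40000 ended under 2 of 22 alternatives (edgeR adjusted p = 0.0624 with upper-quartile scaling and 0.371 without the low-count filter).

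In complex II, SDHC was lower in both groups, with log2 fold changes of -0.86 ± 0.08 at 1:10000 (edgeR adjusted p = 3.04e-10) and -0.42 ± 0.07 at 1:40000 (adjusted p = 4.51e-05). SDHA was lower at 1:10000 (-0.58 ± 0.10) and not called at 1:40000 (-0.05 ± 0.10, edgeR adjusted p = 0.718). SDHD was lower at 1:40000 without overlap (-0.33 ± 0.07) and at 1:10000 with overlap (-0.19 ± 0.07). The call at 1:10000 ended under 2 of 22 alternatives (edgeR adjusted p = 0.0747 without replicate 3 at 1:10000 and 0.0639 without replicate 4). SDHB was called in neither.

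In complex III, UQCR10 had 76.7, 89.8, 90.3, 89.9 and 92.9 CPM in the controls, 44.9, 43.3, 38, 49.9 and 49.7 at 1:10000 and 48.8, 55, 59.5, 62.4 and 64 at 1:40000. Both rinse aid groups lay below all controls, with log2 fold changes of -0.97 ± 0.09 (edgeR adjusted p = 3.83e-10) and -0.61 ± 0.08 (adjusted p = 1.51e-06). UQCRHL, a gene copy of the hinge protein gene UQCRH, was higher in both, from 5.78 ± 0.875 CPM in the controls to 12.2 ± 1.92 at 1:10000 and 14 ± 2.47 at 1:40000. Its log2 fold changes were 1.10 ± 0.16 and 1.27 ± 0.16. Of the CPM of the pair, UQCRHL held 2.52 to 3.87% in control libraries, 5.76 to 8.67% in the 1:10000 group and 7.44 to 9.11% in the 1:40000 group. Because the copy is near identical to UQCRH, reads of the pair may be split by the counting, and this was not tested. UQCRC2 was higher at 1:10000 (0.37 ± 0.07, edgeR adjusted p = 4.96e-05). At 1:40000 it was not called (edgeR adjusted p = 0.0546), and was called higher under 10 of 22 alternatives.

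For complexes IV and V the largest differences from control concerned small subunits. COX6B1 had 116 ± 14.1 CPM at 1:10000 and 137 ± 16.6 at 1:40000 against 188 ± 8.6 in the controls, with log2 fold changes of -0.70 ± 0.09 and -0.47 ± 0.08 and no overlap. COX7A2 was lower at 1:40000 (-0.41 ± 0.09) and at 1:10000 (edgeR adjusted p = 0.048), where the call ended under 12 of 22 alternatives (adjusted p up to 0.128, without control replicate 2). COX7B was lower at 1:10000 (-0.48 ± 0.12) and at 1:40000 (edgeR adjusted p = 0.0205), where the call ended under 5 of 22 (adjusted p up to 0.105, without the low-count filter). COX6A1 was higher in both, by 0.65 ± 0.09 (edgeR adjusted p = 3.3e-07) and 0.28 ± 0.09 (adjusted p = 0.00776). ATP5MC1, ATP5MF and ATP5MC3 fell at 1:10000 by 1.01 ± 0.08, 1.02 ± 0.08 and 0.79 ± 0.07 on the log2 scale. At 1:40000 ATP5MC1, ATP5MF and ATP5MC3 fell by 0.83 ± 0.08, 0.69 ± 0.08 and 0.56 ± 0.07. ATP5PF, coupling factor 6 of the stalk, was lower at 1:40000 (-0.70 ± 0.08) and at 1:10000 (-0.54 ± 0.08), without overlap with the controls.

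ATP5MC2 was the exception within the c-ring, with small differences of opposite sign. Its log2 fold change over control was 0.18 ± 0.07 at 1:10000 (edgeR adjusted p = 0.0319) and -0.19 ± 0.07 at 1:40000 (adjusted p = 0.0297). Both groups overlapped the controls, and the calls ended under 6 and 8 of 22 alternatives. Without replicate 1 at 1:10000 the first had an adjusted p of 0.0825, and without replicate 3 at 1:40000 the second had 0.116.

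NDUFA3 and NDUFA6, both accessory subunits of complex I, were nearly uncounted in the rinse aid files. NDUFA3 had 1350 counts over the 5 controls (31.7 ± 1.68 CPM), 5 over the 1:10000 libraries and 5 over the 1:40000 libraries, all of the latter in replicate 1. Pooled CPM was 220 and 1427 times higher in the controls, the second rather at least 526-fold when the deep replicate 1 at 1:40000 is left out. NDUFA6 had 1674 counts in the controls (39.7 ± 2.78 CPM) and 0 in both rinse aid groups, so it was at least 455-fold and at least 2949-fold higher in the controls, against a floor of 3 counts over a group. Without replicate 1 at 1:40000 the second bound for NDUFA6 was 652-fold. Both genes have transcripts annotated outside the primary assembly, as do UQCRC2, NDUFS1 and COX8C. NDUFA3's higher call between the dilutions (2.42 ± 0.78, edgeR adjusted p = 0.0117) rests on these 5 against 5 counts. Aligner, gene list and exposure cannot be told apart in these differences.

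**Figure D4:**
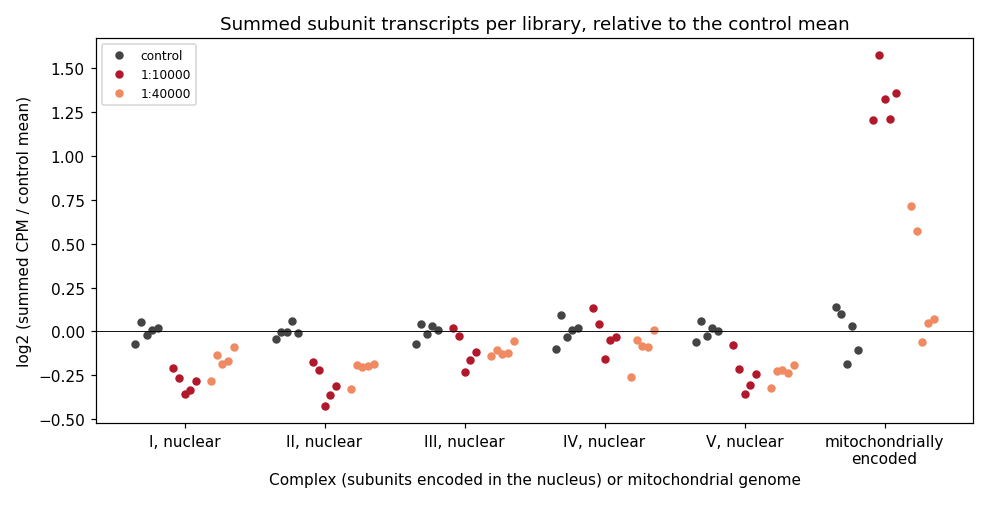
Summed CPM of the subunit genes of each complex, and of the 13 mitochondrially encoded subunits, in each library, as log2 of the ratio to the control mean, coloured by group. Every rinse aid library lies below all controls for complexes I (NDUFA3 and NDUFA6 included), II and V, for complex I at 1:40000 only with those 2 genes, and the mitochondrially encoded sum is high at 1:10000 and in replicates 1 and 2 at 1:40000.

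Summed over each complex, the changes were small beside those of single genes. Complex I summed to 2341 ± 94.1 CPM at 1:10000, 2540 ± 124 at 1:40000 and 2861 ± 93.7 in the controls (mean ± SD, n = 5). All rinse aid libraries were below all controls, and the dilutions overlapped. Without NDUFA3 and NDUFA6 the controls ran from 2653 to 2896 CPM and the 1:40000 libraries from 2354 to 2685, which overlapped, while the 1:10000 libraries (2234 to 2475) stayed below. Complex II summed to 330 ± 23.1, 348 ± 14.2 and 404 ± 10.3 CPM, again below all controls. Complex III (1283 ± 89.9, 1275 ± 28.7 and 1376 ± 41.1 CPM) and complex IV (2103 ± 158, 1985 ± 135 and 2117 ± 105 CPM) overlapped across the 3 groups. Complex V summed to 3634 ± 274, 3629 ± 121 and 4279 ± 137 CPM, below all controls. The 91 genes together took 0.871 to 0.972% of the counts at 1:10000, 0.934 to 1.07% at 1:40000 and 1.13 to 1.21% in the controls.

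Most of the 13 subunits encoded in mitochondrial DNA were higher at 1:10000 than at 1:40000. Their sum was 2.64 to 3.65 times the nuclear sum at 1:10000 and 0.993 to 1.29 times in the controls. At 1:40000 it was 2.21 and 1.84 times in replicates 1 and 2 and 1.20 to 1.30 times in the other 3. Between the dilutions 12 of 13 were called higher at 1:10000 and 0 lower. Their median log2 fold change was 1.10, with 1.44 ± 0.16 for MT-ND4L and 0.91 ± 0.12 for MT-CO3. Without replicates 1 and 2 at 1:40000 the counts were 12 and 1 and the median 1.18. The mitochondrial sum moves with the groups and with those 2 libraries, and its part in the results for the nuclear genes was not tested. Trimmed-mean scaling left the median log2 fold change of all tested genes between -0.02 and 0.00 in the 3 comparisons. The scaling itself brings this median near 0, so it is no check on the part of the mitochondrial sum. Upper-quartile scaling moved the median by -0.05 between the dilutions, 0.00 at 1:10000 against control and 0.05 at 1:40000 against control.

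Over the 3 comparisons the members fell into a few patterns, listed as counts since the comparisons share groups. COX7A2L, CYCS, NDUFAB1, NDUFS3, NDUFV3 and UQCRC2 were higher at 1:10000 than in both other groups, with no call between those 2, a pattern of 7.59% of tested members and 11.5% of all tested genes. ATP5PD, NDUFA8, NDUFB10, NDUFS6 and SDHA were among those lower at 1:10000 than in both others, again with no call between those 2. That pattern held for 7.59% of tested members and 11.8% of all tested genes. UQCRC2, NDUFV3, ATP5PD and NDUFA8 are placed by calls between the dilutions that ended under 1 to 3 of 22 alternatives. At 1:40000 against control UQCRC2 lay near the threshold (edgeR adjusted p = 0.0546) and was called higher under 10 of 22 alternatives. In the same comparison NDUFS6, ATP5PD and NDUFA8 were called lower under 4, 1 and 1 of 22. In 9 members (11.4%), among them SDHC, NDUFC2, UQCR10 and ATP5MF, each group was lower than the one with less rinse aid, as in 9.58% of all tested genes. In 20 (25.3%), among them ATP5MC1, ATP5PF, NDUFA2 and NDUFB3, both dilutions were below control with no call between them, as in 9.65% of all tested genes. For 15 (19.0%), as for 16.3% of all tested genes, no comparison was called, among them ATP5F1B, COX4I1, COX5A, COX5B, CYC1 and SDHB.

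Levels in the controls, per kilobase of the longest principal transcript in GENCODE 29, were highest for ATP5F1B (649 ± 16.5 CPM per kb) and COX4I1 (506 ± 21.6). ATP5F1C (290 ± 13.3), COX6B1 (282 ± 12.9) and UQCRH (279 ± 15.5) followed, and these 3 did not differ beyond their spread. A long annotated transcript lowers this measure, as for SDHC with 13566 bases and NDUFS1 with 11819.

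Isoforms that belong to muscle, testis or lung were absent or nearly so. COX4I2, COX6A2, COX7A1, COX7B2 and COX8C had 0 counts in all 15 libraries, which allows up to 3 counts in each. COX6B2 reached 0.0927, 0.252 and 0.548 CPM in the controls, at 1:10000 and at 1:40000, and the hypoxia-induced NDUFA4L2 reached 0.208, 0.374 and 0.759 CPM, neither enough to be tested. NDUFV2, a core subunit, was counted at only 0.647 ± 0.369, 1.18 ± 0.321 and 1.04 ± 0.603 CPM, and NDUFA13 and NDUFA7 lay below 1 CPM in every group. Exons of NDUFV2, NDUFA13 and NDUFA7 overlap other annotated genes, and whether this lowered their counts was not tested. NDUFV2 also has 1 annotated pseudogene. Its log2 fold changes over control, 0.80 at 1:10000 and 0.77 at 1:40000, were not called (edgeR adjusted p = 0.111 and 0.109). Summed with the pseudogene they were 1.816 and 1.765, both called (edgeR adjusted p = 2.02e-07 and 4.81e-07). Aligner and exposure cannot be told apart in these values.

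Several shared features bear on how the genes can be counted. Annotated pseudogenes exist for 51 of the 91 members, 231 in all, and exon overlaps with another gene for 49. The gene version differed between the control and rinse aid files for 7 members, among them SDHA, UQCRHL, NDUFS7, COX7A2 and NDUFA4L2. The part of this in their differences from control was not tested. Of the counts of members and pseudogenes together, the pseudogenes took 0.166 to 0.229% in control libraries, 0.507 to 0.637% in the 1:10000 group and 0.535 to 0.579% in the 1:40000 group, a larger share in every rinse aid library than in any control. Of 10 tested members without a pseudogene, an exon overlap, a changed gene version or a transcript outside the primary assembly, 2 were higher and 2 lower between the dilutions. That is 40% called, against 57.3% of all tested genes. Against control, 3 of these 10 were higher and 5 lower at 1:10000 (80% called, against 71% of all tested genes). At 1:40000, 1 was higher and 2 lower (30%, against 52.1%). Their median log2 fold changes over control were -0.11 at 1:10000 and -0.03 at 1:40000, against -0.23 and -0.16 over all tested members. Among 76 tested members with a mean of at least 5 CPM, NDUFA3 and NDUFA6 left out, those called higher between the dilutions had a median transcript length of 2615 bases, those called lower 1060 bases and those not called 997 bases. Across these 76 genes Spearman's rho between length and log2 fold change was 0.18, given as a description across genes that share libraries.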

How the data were processed

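Raw counts per Ensembl gene were deposited by the authors, 1 file per library, per the file headers. Per the submitters' processing notes, the tools were STAR 2.7.9a, cutadapt, DESeq2 1.32.0 and featureCounts on GRCh38 (hg38), with no role or order given. The headers name RNA STAR for the 5 control files and HISAT2 for the 10 rinse aid files. Annotation release and strand setting are not given in the sources used here, so counts of overlapping genes and near-identical copies are uncertain.

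Files were joined by identifier without version. Gene features came from GENCODE 29 on GRCh38 and promoter windows from RefSeq on GRCh38.p14, where 20 of the 91 members had none. The fit used R 4.3.3 and edgeR 4.0.16 with filterByExpr, TMM scaling, 3 group means over 15 libraries, the robust quasi-likelihood test and Benjamini-Hochberg adjustment over 13157 genes within each of 3 comparisons. SE is the absolute log2 fold change over the square root of F. On simulated data for the comparison between the dilutions (12835 genes), the test recovered 82 and 84% of genes changed by -0.5 and 0.5 on the log2 scale and 100% of those changed by -1 and 1. The simulation changed 200 genes of at least 5 CPM and no others, with the same dispersion for all genes. Its recovery does not measure sensitivity in these data, where 57.3% of tested genes were called between the dilutions.

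Members were named when they are core subunits, tissue isoforms with their partners, near absent in 1 set of files, or the 2 called members per complex and comparison with the largest absolute log2 fold change at a mean of at least 5 CPM; NDUFAB1, NDUFC2, NDUFV3, NDUFB3, NDUFA2, NDUFS4, NDUFB5, UQCRB, ATP5F1E and the members listed for a pattern were named after their values were seen. Of other pathway lists, the 2 called genes with the smallest adjusted p between the dilutions were named; of those against control fewer were. TACO1, PPARGC1A and the markers were named after their values were seen. Members and lists were chosen with earlier results of these data known. Replicates of a group differed beyond counting noise (chi-square per degree of freedom of at least 1.77). Alternatives were DESeq2 1.42.0, upper-quartile scaling, no low-count filter, a replicate block, the compared groups alone, members summed with pseudogenes, each library left out in turn, and replicates 1 and 2 at 1:40000 left out together. One member is included in the fits and counts, and its own values are not reported here. Bounds against 0 cover counting error only.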

Additional observations from a re-analysis of the deposited data

Results flagged for a closer look

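Each of 174 sets of 5 libraries, for a named member or a complex sum, was checked for a library far from the rest, that is 1 whose gap to its nearest neighbour exceeds 0.71 of the whole range. Chance flags about 1 in 20 sets, and 17 were flagged, 9 of them at 1:40000.

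At 1:40000, replicate 1 was the lowest for COX6B1 (108 CPM against 140 to 153, gap 0.725 of the range), COX7A2 (65.7 against 92.8 to 99.3, gap 0.807), NDUFA4 (156 against 199 to 210, gap 0.795), NDUFB3 (22.5 against 36.7 to 39.7, gap 0.822), ATP5F1E (290.0 against 368 to 395, gap 0.735) and the complex II sum (322 against 351 to 356, gap 0.843). It was the highest for NDUFA3, at 0.0288 CPM against 0 in the others (gap 1). Replicate 5 at 1:40000 was the highest for COX4I1 (478 CPM against 443 to 449, gap 0.816), and replicate 2 for NDUFB5 (70.7 against 53.7 to 57.9, gap 0.754).

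At 1:10000, replicate 1 was the highest for CYCS (257 CPM against 200 to 212, gap 0.8). Among the controls, replicate 1 was the lowest for COX4I1 (409 against 443 to 455, gap 0.74) and UQCR10 (76.7 against 89.8 to 92.9, gap 0.807) and the highest for NDUFB5 (60.1 against 47.4 to 50.6, gap 0.748). Control replicate 2 was the highest for COX6A1 (89.8 against 66.6 to 72.7, gap 0.737) and ATP5PD (110 against 96.5 to 99.4, gap 0.786), and replicate 4 for NDUFC2 (87 against 80.7 to 81.5, gap 0.872). Control replicate 5 was the highest for NDUFV2, at 1.29 against 0.399 to 0.612 CPM (gap 0.762).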

How the results depend on the processing

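The number of members called between the dilutions ran from 28 to 38 when single libraries were left out (11 to 18 higher, 16 to 25 lower). For 1:10000 against control it ran from 49 to 58 (10 to 11 higher, 38 to 48 lower), and for 1:40000 against control from 36 to 46 (4 to 8 higher, 32 to 39 lower). Without the low-count filter the higher members became 8 between the dilutions, down from 14, and 11 at 1:40000 against control, up from 6. That setting moved the median log2 fold change of the genes tested by -0.07 and 0.08. For same-numbered replicates, the correlation of their deviations from the group mean was computed. The correlations were 0.0453 to 0.281 between the dilutions, -0.0503 to 0.0579 for control with 1:10000 and 0.0597 to 0.135 for control with 1:40000. Between the dilutions, 3 of 5 libraries at 1:10000 and 2 of 5 at 1:40000 correlated best with their own number. Whether the numbers pair the samples cannot be decided from these values, and the main fit did not use the numbers. With the replicate block 37, 54 and 44 members were called in these comparisons in the order given above. Over named members and alternatives, 3180 values kept their side of the threshold, 113 lost the call, 62 gained it and none changed sign with a call. The 3180 include values without a call that changed sign, as for COX5B between the dilutions (-0.12 to 0.06 over the alternatives). Depth limits low genes, and 12 of the 91 members were not tested. The shallowest library, replicate 2 at 1:40000, held 2551839 counts.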

Other observations

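Assembly factors build the complexes without staying in them. Between the dilutions, 5 of 16 complex I factors were higher and 2 lower at 1:10000, 0 of 4 complex II factors were called, 1 of 6 complex III factors was higher and 2 lower, 8 of 23 complex IV factors were higher and 4 lower, and 0 of 5 complex V factors were higher and 3 lower. The share of all tested genes was 28.3% higher and 29% lower. NDUFAF4, a complex I factor, had 29.3 ± 3.21 CPM (mean ± SD, n = 5) at 1:10000 and 17.7 ± 2.7 at 1:40000, a log2 fold change of 0.73 ± 0.11 (edgeR adjusted p = 6.09e-06). COA1, also of complex I, was lower (-0.39 ± 0.08). COX20, which escorts a core subunit of complex IV, was higher by 0.69 ± 0.10, and HIGD1A, a small hypoxia-responsive factor, by 0.67 ± 0.10. UQCC1, a complex III factor, fell by 0.69 ± 0.07 on the log2 scale, from 58.6 ± 6.19 to 36.7 ± 1.1 CPM, and TTC19 was higher by 0.30 ± 0.08. ATPAF1, a chaperone of the complex V head, fell by 0.56 ± 0.09 and the complex V inhibitor ATP5IF1 by 0.31 ± 0.09. TACO1, an activator of MT-CO1 translation, had 26.9 ± 4.03 CPM in the controls against 2.08 ± 0.601 and 2.87 ± 0.723 in the rinse aid groups, where aligner and exposure cannot be told apart.

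Among 12 tested genes of coenzyme Q synthesis, 4 were higher and 2 lower at 1:10000 than at 1:40000. COQ10B, a coenzyme Q binding protein, had 99.3 ± 10.3, 43.5 ± 3 and 37.5 ± 3.73 CPM at 1:10000, at 1:40000 and in the controls, with a log2 fold change between the dilutions of 1.19 ± 0.08 (edgeR adjusted p = 9.8e-12), and PDSS2 was lower (-0.61 ± 0.09). Of 13 citrate cycle genes 3 were higher and 2 lower, among them DLD (0.28 ± 0.06) and OGDH (-0.51 ± 0.06), both of the 2-oxoglutarate dehydrogenase complex. Of 11 tested regulators of mitochondrial gene expression 3 were higher and 2 lower. GABPB1, a partner of the ETS factor GABPA, was higher by 0.66 ± 0.08, and the coactivator PPARGC1B (-0.99 ± 0.12) and the mitochondrial DNA packaging factor TFAM (-0.25 ± 0.08) were lower. PPARGC1A was at 0 counts in the controls and at 0.031 and 0.0309 CPM in the rinse aid groups.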
